A study of Bos taurus with 2 samples.

Results

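Genes that carry fat into the mammary cell and build it into milk triglyceride were followed in mammary tissue from Chinese Holstein cows with and without mastitis. They were LPL, VLDLR, ACSL1, GPAM, AGPAT1, AGPAT6 (also named GPAT4), LPIN1, DGAT1 and DGAT2. A probe belonged to a gene when its gene name, or the current symbol of its RefSeq entry, was that gene. This gave 29 probes for 9 genes, out of 16538 named genes on the array. Mammary tissue of adult cows in late lactation was collected after slaughter, and its total RNA was labelled with a single dye, cyanine 3. Of the 2 arrays, 1 was labelled mastitis and 1 normal, so each condition was measured on 1 array, while the series design gives 3 cows per condition and does not name the cow or cows behind each array. According to the study's methods antibiotics were given to the diseased cows alone, so mastitis and antibiotic treatment cannot be told apart. With 1 array per condition there was no replicate check, and no test or p-value is given.

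The milk fat globule is almost entirely triglyceride. Lipoprotein lipase (LPL) on the capillary wall frees fatty acids from circulating lipoproteins, and the mammary epithelial cell takes them up and links them to coenzyme A. Acyltransferases then place fatty acids on glycerol-3-phosphate one after the other: GPAM and AGPAT6 add the first, AGPAT1 the next, a lipin removes the phosphate, and DGAT1 or DGAT2 adds the last.

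Signals are the median pixel intensity of a spot minus the mean of the negative control spots, here called the net signal. The net signals of the mastitis array ran higher across the array, with a 75th percentile of 210 against 128 on the normal array. Each array was therefore divided by its own 75th percentile, which lowers every mastitis over normal ratio by 0.714 on the log2 scale. To count as well above background, a probe needed a spot that was found and a net signal over 7.10 (mastitis) or 8.74 (normal). Both limits lay 2.6 SD over the average of 153 negative control spots. A gene's ratio is the mean over its probes that passed on both arrays, and 12062 genes had one. The median log2 ratio of all these genes was -0.147. Probes of the same gene differed with a pooled SD of 0.45 on the log2 scale over 6409 genes, and this is a technical error that holds no animal-to-animal spread.

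Triglyceride assembly genes were lower on the mastitis array. Of the 8 members with a ratio, 6 differed by 2-fold or more in that direction and 0 in the other, against 9.04% of all measured genes lower and 2.26% higher. The other members, AGPAT6 and VLDLR, were also below 0, as were 61.2% of all measured genes. The median log2 ratio of the members was -1.20, or -1.05 relative to the median of all genes. The count was 4 under median, spike-in or quantile scaling, against 6.62%, 5.84% and 6.08% of all measured genes. It was 3 after normexp correction (median -0.72), against 3.27%, and 2 without scaling (median -0.49), against 2.63%. The median of all genes was -0.196 after normexp correction and 0.567 without scaling. All 23 member probes measured on both arrays had scaled signals that were lower on the mastitis array, and 14 of them were at least 2-fold lower, against 8.8% of the measured probes of named genes. Before scaling, 20 of the 23 probes were lower on the mastitis array. The largest difference was that of GPAM, the enzyme of the first acylation step, followed by that of LPL.

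**Figure D1:**
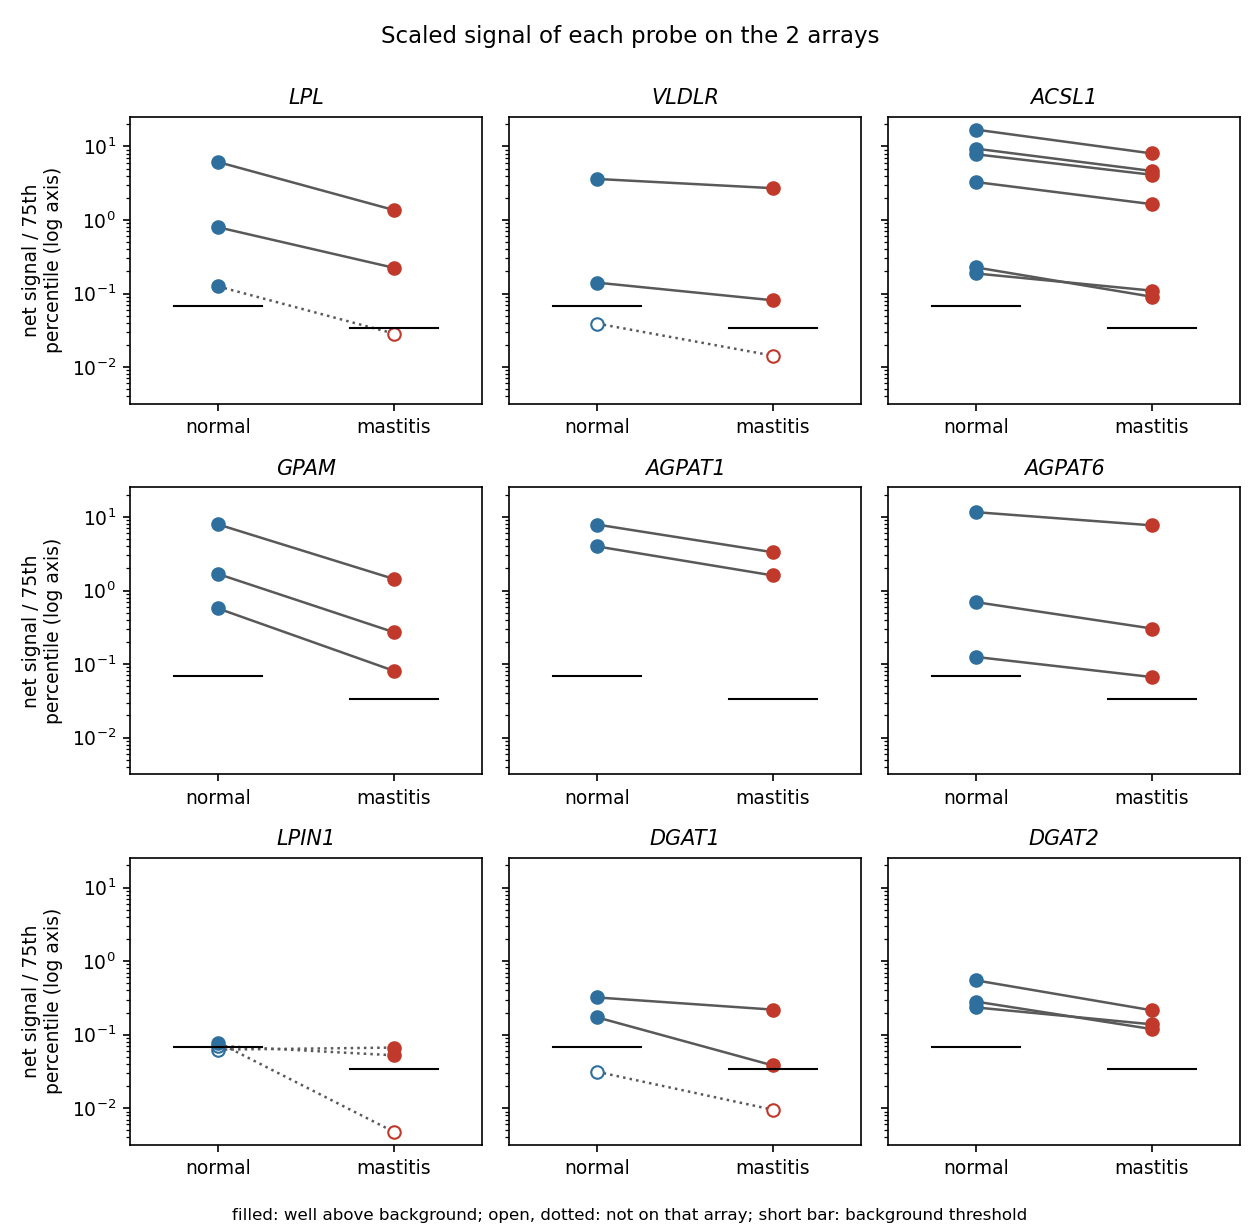
Scaled signal of each of the 29 probes on the normal array (blue) and the mastitis array (red), 1 panel per gene, on a log axis in units of the array's 75th percentile. Lines join the values of 1 probe. Filled circles are well above background on that array, open circles are not, and the short bars mark the background limit. The 3 lines of GPAM are the steepest among those measured on both arrays, followed by 1 probe of DGAT1 and the brightest probe of LPL, and the probes of LPIN1 sit around the limit on the normal array.

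Uptake of lipoprotein fat was represented by LPL and VLDLR. LPL had 3 probes, and its brightest probe gave a net signal of 786 on the normal array and 287 on the mastitis array. Its next probe gave 102 and 47. Both fell on the same side, at 4.49-fold and 3.56-fold lower on the mastitis array after scaling. The remaining LPL probe passed the background limit on the normal array alone, with net signals of 16 and 6, which is a difference of at least 3.28-fold in the same direction. The log2 ratio of LPL was -2.00 ± 0.24 (SD over 2 probes), which is 4-fold lower. Only 1.92% of the measured genes had a lower ratio.

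VLDLR, a receptor that binds triglyceride-rich lipoproteins, differed far less. Its bright probe gave 463 on the normal array and 569 on the mastitis array, and its dim probe gave 18 and 17. The bright probe was thus higher on the mastitis array before scaling and 1.33-fold lower after it. The remaining VLDLR probe, with net signals of 5 and 3, passed on neither array. The log2 ratio of VLDLR was -0.61 ± 0.27 (SD over 2 probes), or 1.52-fold lower. Relative to the median of all genes it was -0.46, about the size of the pooled SD over probes, and without scaling it was 0.11. No direction can be given for VLDLR that holds under each scaling.

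ACSL1 joins long-chain fatty acids to coenzyme A, the form in which the acyltransferases use them. It had 6 probes, the most of any member, and all 6 were measured on both arrays. The brightest gave a net signal of 2168 on the normal array and 1689 on the mastitis array. The following ones gave 1195 and 976, then 1002 and 866, and then 420 and 345. The dim pair gave 24 and 23, and 29 and 19. All 6 were lower on the mastitis array, by 1.71-fold to 2.504-fold after scaling. This gave ACSL1 a log2 ratio of -1.02 ± 0.18 (SD over 6 probes), or 2.02-fold lower. It sat at the edge of the 2-fold limit, and its place on either side of that limit depended on the scaling.

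Acylation of glycerol-3-phosphate was represented by GPAM, the mitochondrial enzyme, and AGPAT6, an enzyme of the endoplasmic reticulum. GPAM had net signals of 1015 on the normal array and 302 on the mastitis array at its brightest probe. The other probes gave 215 and 57, and 73 and 17. The 3 probes spanned a wide range of brightness and still gave close ratios, at 5.51-fold, 6.19-fold and 7.05-fold lower. Their mean was a log2 ratio of -2.64 ± 0.18 (SD over 3 probes), or 6.22-fold lower, and 0.953% of the measured genes had a lower ratio.

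AGPAT6 gave a different picture for the same step. Its brightest probe had a net signal of 1490 on the normal array and 1619 on the mastitis array, and was 1.51-fold lower after scaling. Its other probes gave 89 and 64, and 16 and 14, which were 2.28-fold and 1.88-fold lower. The log2 ratio of AGPAT6 was -0.90 ± 0.30 (SD over 3 probes), or 1.86-fold lower. No AGPAT6 probe reached the range of the GPAM probes. The lowest AGPAT6 probe was at -1.19 and the highest GPAM probe at -2.46 on the log2 scale, a gap larger than the pooled SD over probes.

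AGPAT1, which places the next fatty acid to make phosphatidic acid, was measured by 2 bright probes. They gave net signals of 1011 and 510 on the normal array, and 697 and 337 on the mastitis array, in the same order. Both were lower on the mastitis array, by 2.38-fold and 2.48-fold after scaling. The log2 ratio was -1.28 ± 0.04 (SD over 2 probes), or 2.43-fold lower, and this was the smallest spread over probes of any member.

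LPIN1, a phosphatidic acid phosphatase, was close to background and had no ratio. Its probes gave net signals of 8, 9 and 10 on the normal array and 14, 11 and 1 on the mastitis array, in the same order. The first 2 passed on the mastitis array alone, where the spot of the second on the normal array was not found, and the last passed on the normal array alone. After scaling the first probe was close to level between the arrays, the second was lower on the mastitis array, and the last was lower there by at least 2.05-fold. With 1 bound near the limit, no direction is given for LPIN1.

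The last step was represented by DGAT1 and DGAT2, both with dim probes. DGAT1 gave net signals of 41 on the normal array and 46 on the mastitis array at one probe, and 22 and 8 at another. The former was 1.46-fold lower after scaling and the latter 4.51-fold lower, while the remaining probe, with 4 and 2, passed on neither. The mastitis signal of 8 was the lowest value that passed on that array. The log2 ratio of DGAT1 was -1.36 ± 1.15 (SD over 2 probes), or 2.57-fold lower, so its place past 2-fold rested on the dimmer probe. By the brighter probe alone the log2 ratio was -0.55.

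DGAT2 rested on 3 probes that were all measured on both arrays. They gave net signals of 70, 36 and 30 on the normal array and 45, 25 and 29 on the mastitis array, in the same order. The corresponding differences were 2.55-fold, 2.36-fold and 1.70-fold lower on the mastitis array after scaling. Their mean log2 ratio was -1.12 ± 0.31 (SD over 3 probes), or 2.17-fold lower. All 3 net signals were lower on the mastitis array before scaling, although the last pair differed by a single unit.

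**Figure D2:**
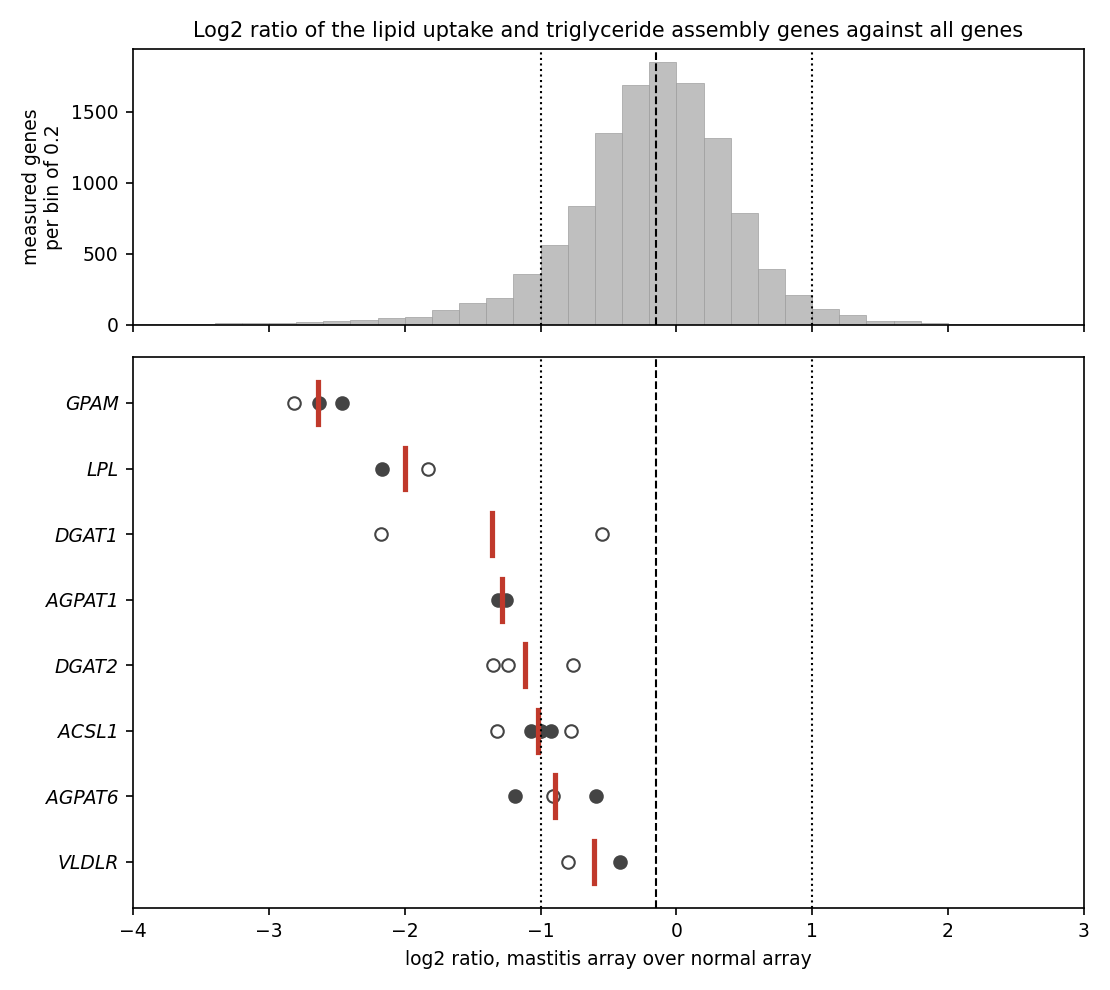
Top, log2 ratio of mastitis over normal for the measured genes in bins of 0.2 (genes beyond the axis are not drawn). Bottom, each probe of the 8 members with a ratio; open circles are probes with a net signal under 50 on either array and red bars are the means over probes. A dashed line marks the all-gene median (-0.147) and dotted lines mark 2-fold. The means run from -2.64 for GPAM to -0.61 for VLDLR, all to the left of the dashed line.

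In order from the lowest ratio, the members were GPAM, LPL, DGAT1, AGPAT1, DGAT2, ACSL1, AGPAT6 and VLDLR. The probes of GPAM lay below those of LPL without overlap. The nearest of them, at -2.46 and -2.17, were closer than the pooled SD over probes, and LPL rested on 2 probes. After normexp correction GPAM was at -1.76 and LPL at -1.49. LPL lay below every probe of AGPAT1, DGAT2, ACSL1, AGPAT6 and VLDLR. DGAT1 could not be placed, since its probes at -2.17 and -0.55 spanned the range of nearly all the others. AGPAT1, DGAT2, ACSL1 and AGPAT6 were neighbours whose ratios differed by less than the pooled SD over probes of 0.45, and VLDLR was within that distance of AGPAT6.

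GPAM and LPL kept the lowest places under the settings tried. Rescaling a whole array moves every ratio and the median of all genes alike, so it could not change the order. Some of the filters and the naming choices left the ratios of GPAM and LPL as they were, so these could not change it either. Over 17 settings, the reported one among them and the deposited table as named left out, which changed the background correction, the scaling, the filter on dim probes, the way probes were averaged and the naming, GPAM had the lowest ratio and LPL the next in 17 of 17. Both were past 2-fold in all 17, with log2 ratios from -2.64 to -1.65 for GPAM and from -2.17 to -1.29 for LPL. AGPAT1 was past 2-fold in 16 of 17, the exception being the unscaled signals. DGAT1 was past 2-fold in 12 of 16 settings, ACSL1 in 10 of 17 and DGAT2 in 9 of 16, so these calls rested on the setting. AGPAT6 and VLDLR were past 2-fold in 0 of 17. In all 17 settings each member that had a ratio lay below the median of all genes.

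**Figure D3:**
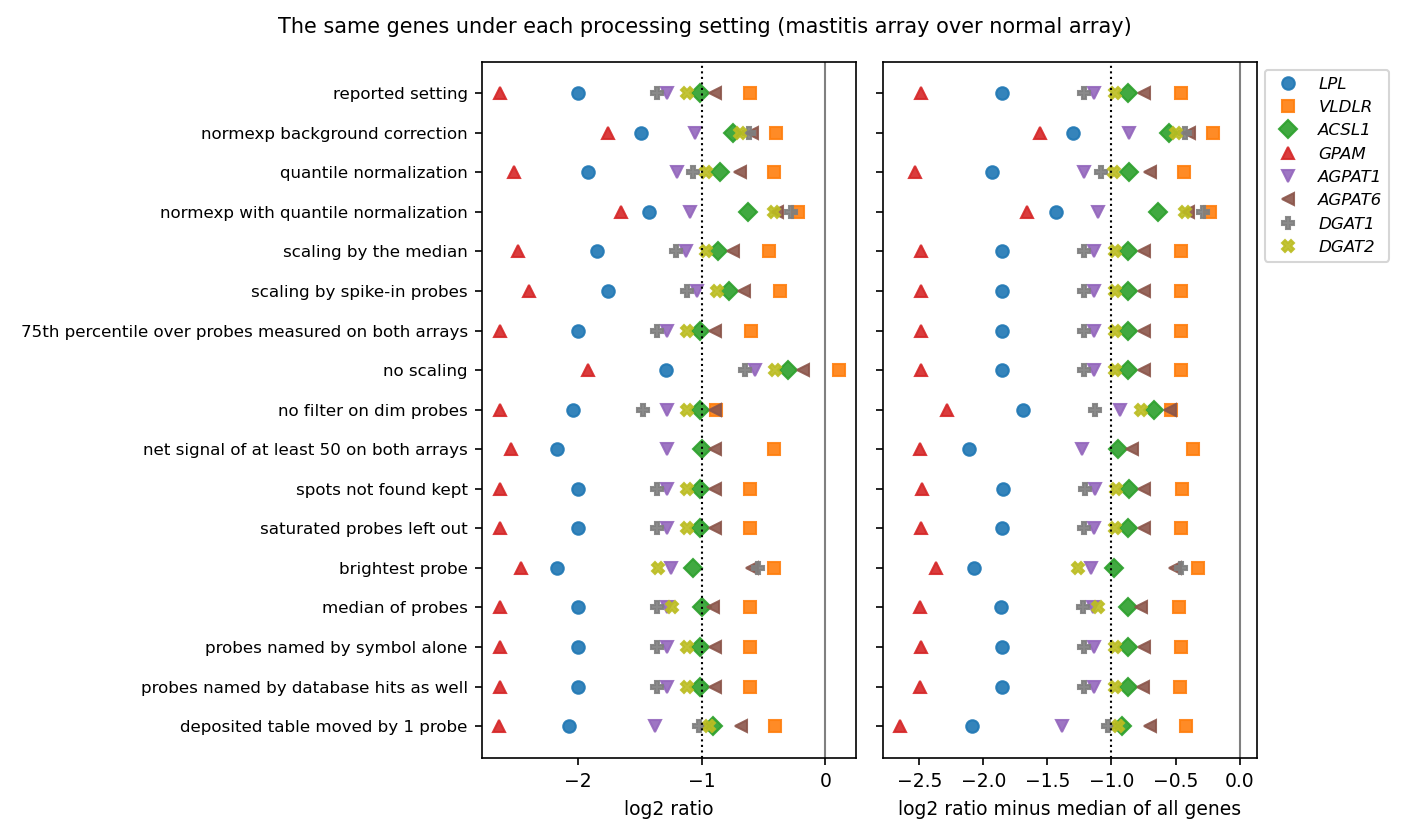
Log2 ratio of each member under 17 processing settings (left), and the same after subtracting the median of all genes in that setting (right). Each symbol is a gene and the dotted line marks 2-fold lower. GPAM and LPL are leftmost in every row, but with normexp and quantile normalization LPL (-1.42) lies near AGPAT1 (-1.09). In most rows the other members gather on both sides of the dotted line. Without scaling they all lie to its right in the left panel.

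The paralogs of the members did not share one direction. Among the long-chain acyl-CoA synthetases, ACSL3 had a log2 ratio of 0.52 ± 0.55 (SD over 2 probes) and ACSL4, by 1 probe, of 0.39. ACSL5 and ACSL6 were at -0.01 and -0.34, and their signs changed with the scaling. Within the family of GPAM and AGPAT6, GPAT3 had a log2 ratio of -0.93 ± 0.08 (SD over 2 probes), and GPAT2 one of -0.11 by 1 probe, whose sign also changed with the scaling.

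The paralogs of AGPAT1 lay on both sides of 0. AGPAT2, which runs the same reaction and is prominent in fat tissue, had 1 probe, with net signals of 447 on the normal array and 1592 on the mastitis array, and was 2.17-fold higher. AGPAT5 had a log2 ratio of 0.61 ± 0.14 (SD over 3 probes) and AGPAT4, by 1 probe, of 0.47. AGPAT3 was on the other side, at -0.94 ± 0.08 (SD over 4 probes). The lipins LPIN2 and LPIN3 were at -0.71 and -0.67. Without scaling LPIN2 was level between the arrays and LPIN3 was at 0.04.

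The partners of LPL were for the most part close to the median of all genes. Of 15 genes on the array that assist LPL, block it or bind lipoproteins, 9 were measured, of which 1 was 2-fold or more lower and 0 higher, with a median log2 ratio of -0.18. This was APOA5, an apolipoprotein that promotes LPL action, by 1 probe with net signals of 125 on the normal array and 13 on the mastitis array. Of those without a ratio, APOC3 passed on the normal array alone, a difference of at least 3.49-fold, and LIPG on the mastitis array alone. The bound for LIPG was 0.54-fold after scaling. Being under 1, it shows no higher level on the mastitis array. GPIHBP1, which anchors LPL to the capillary wall, and CD36, a fatty acid receptor, were looked up after their values were seen. Their log2 ratios were -0.28 by 1 probe and -0.49 ± 0.28 (SD over 2 probes).

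Genes that bind, carry and activate fatty acids had a median close to that of all genes. Of 20 on the array 16 were measured, with 3 past 2-fold lower, 1 past 2-fold higher and a median log2 ratio of -0.15. The 3 included FABP3, the main fatty acid binding protein of the lactating gland, with a log2 ratio of -6.66 ± 1.52 (SD over 4 probes). SLC27A6, a fatty acid transport protein, was at -1.85 ± 0.11 (SD over 2 probes) and DBI, which binds acyl-CoA, at -1.37 (2 probes). FABP7 was at 1.26 ± 0.38 (SD over 2 probes), but at 0.32 after normexp correction.

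The other acyltransferases, phosphatases and glycerol suppliers numbered 25 on the array, of which 21 were measured, 4 past 2-fold lower and 2 past 2-fold higher, with a median log2 ratio of -0.45. GPD1, which makes glycerol-3-phosphate from a glycolytic intermediate, was at -3.02 ± 0.82 (SD over 3 probes). BSCL2, the seipin of lipid droplet formation, was at -1.77 ± 0.42 (SD over 2 probes), GK, glycerol kinase, at -2.22 by 1 probe, and AWAT2, a wax synthase, had 1 dim probe with net signals of 11 on the normal array and 9 on the mastitis array. The higher ones were AGPAT2, given above, and CNEP1R1, a partner of the phosphatase that activates lipins, at 1.08 by 1 probe. Of those without a ratio, AWAT1 passed on the normal array alone, a difference of at least 3.49-fold. MOGAT1, MOGAT2 and MOGAT3 passed on the mastitis array alone. Their bounds after scaling were 0.54-fold, 0.61-fold and 1.15-fold. A bound under 1 shows no higher level on the mastitis array, so no direction is given for MOGAT1 and MOGAT2.

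Part of the phospholipid branch draws on the same diacylglycerol as DGAT1 and DGAT2. Of 18 genes of the branch as a whole 17 were measured, with 3 at least 2-fold lower, 0 higher and a median of -0.26. These were CHPT1, at -1.97 by 1 bright probe, PEMT, at -1.79 ± 0.21 (SD over 2 probes), and CHKA, at -1.42 by 1 probe. CHKA and CHPT1 act at the start and the end of the choline route to phosphatidylcholine, and PEMT makes it from phosphatidylethanolamine. Other genes of these reactions, looked up after their values were seen, did not lie with them: CEPT1 was at 0.61 ± 0.37 (SD over 2 probes), CHKB at 0.19 ± 0.32 (SD over 3 probes) and PCYT1A at -0.24 by 1 probe. Of the triglyceride breakdown genes 8 of 10 were measured, with 0 past 2-fold in either direction and a median of 0.10. Of the transcriptional regulators of lipid genes 14 of 17 were measured, and 1, INSIG1, was at least 2-fold lower, at -1.51 by 1 probe, and the list median was -0.39. After normexp correction BSCL2, AWAT2, CNEP1R1, PEMT and CHKA were within 2-fold. Without scaling the medians of these 6 lists were above 0, as was that of all genes (0.567), so they are read relative to it.

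Other steps of milk fat formation gave a wider range than the members did. Of 14 measured genes of de novo fatty acid synthesis and desaturation 6 were at least 2-fold lower and 0 higher, with a median of -0.77. SCD, the desaturase, was at -4.79 ± 0.39 (SD over 6 probes) and FASN, the fatty acid synthase, at -1.74 ± 0.22 (SD over 5 probes). Of 9 milk fat globule membrane genes 8 were at least 2-fold lower, with a median of -2.10. Thus 75% of the measured members were at least 2-fold lower, against 42.9% of the de novo list and 88.9% of the globule membrane list. Without scaling the order of the shares of the members and the de novo list turned, with 2 of 8 members and 4 of 14 de novo genes past 2-fold. With normexp correction it held, at 3 of 8 and 4 of 14. The members' median was the lower one in both settings. It was -0.49 against -0.06 without scaling, and -0.72 against -0.57 with normexp correction. The difference between these lists was not tested.

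**Figure D4:**
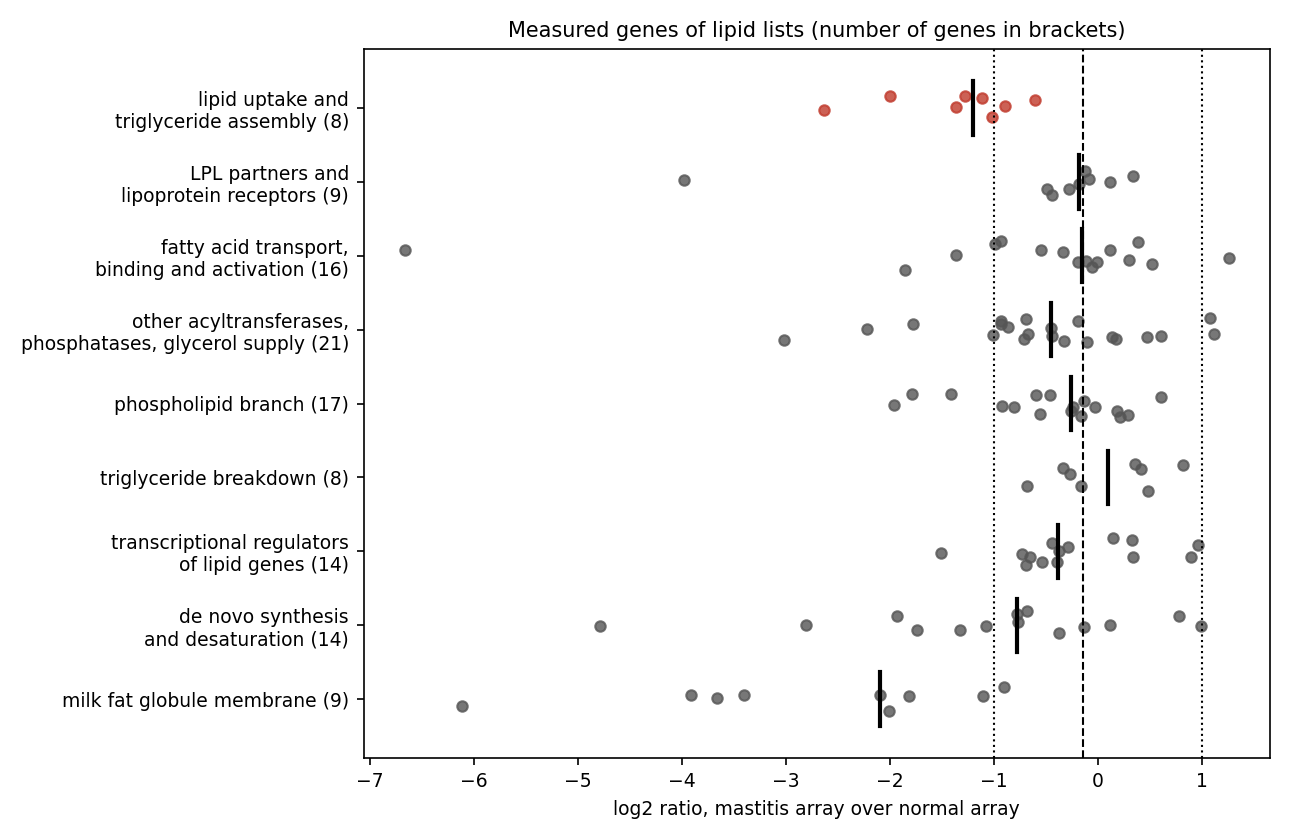
Log2 ratio of mastitis over normal for the measured genes of the lipid lists, 1 circle per gene, with the members in red and black bars at the list medians. Dashed and dotted lines mark the all-gene median and 2-fold. The members' median of -1.20 lies between those of the de novo list (-0.77) and the globule membrane list (-2.10), and the medians of the other lists lie between -0.45 and 0.10.

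Cell type markers differed between the arrays beside the members, and their part in the result was not tested. In whole tissue, fewer cells of a type and less RNA per cell cannot be told apart. Milk protein genes, which mark the secreting epithelium, were at least 2-fold lower in 6 of 6 measured genes. CSN2 (beta-casein) was at -7.53 ± 2.21 (SD over 5 probes). LALBA (alpha-lactalbumin) passed the background limit on the normal array alone, a difference of at least 11850-fold. The summed scaled signal of the milk protein list was 2755 on the normal array and 64.8 on the mastitis array, against 24.01 and 10.6 for the members.

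General luminal epithelial markers did not show this difference. Of 12 measured, 1 was at least 2-fold lower (ELF5, a regulator of secretory differentiation, at -2.22) and 0 higher, with a median of -0.06 that turned above 0 when the arrays were scaled by their medians, and summed signals of 140.1 (normal) and 98.9 (mastitis). KRT18, a keratin of luminal cells, was at 0.97 ± 0.13 (SD over 3 probes). LPL and several members are also expressed in fat cells and macrophages. Of 10 adipocyte markers 6 were measured, with 2 at least 2-fold lower (LEP and CIDEC, each by 1 probe) and a median of -0.32. Without scaling this median was 0.40, against 0.567 for all genes. Relative to all genes it was -0.17 in both settings. The summed signals were 64.2 (normal) and 68.02 (mastitis). Most of both sums came from FABP4, by 1 probe with net signals of 7277 on the normal array and 12930 on the mastitis array. The sums therefore say little about the other adipocyte markers. LEP and CIDEC were within 2-fold after normexp correction. ADIPOQ, the defining adipocyte marker, passed the background limit on neither array. PLIN4 passed on the normal array alone, a difference of at least 3.69-fold. PLIN1 and LIPE passed on the mastitis array alone, with bounds of 0.75-fold and 0.88-fold after scaling. Both bounds are under 1 and show no higher level on that array.

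Of 8 measured macrophage markers 3 were at least 2-fold higher (CD163, C1QA and C1QB) and 0 lower, with a median of 0.89 and summed signals of 49.1 (normal) and 92.4 (mastitis). The count higher was 5 under median, spike-in or quantile scaling, against 3.42%, 4.53% and 3.56% of all measured genes. It was 7 without scaling, against 20% of all measured genes, whose median was then 0.567. It was 3 after normexp correction, against 0.746%, and there CD163 was within 2-fold. CD68 was at 0.44 ± 0.26 (SD over 2 probes). Endothelial markers, whose cells hold LPL on their surface, had 0 of 10 past 2-fold, a median of 0.27 and summed signals of 14.9 and 19.7, with PECAM1 at 0.76 ± 0.47 (SD over 3 probes). Neutrophil markers were at least 2-fold lower in 6 of 6 measured genes, with S100A12 at -1.70 ± 0.10 (SD over 3 probes). The others rested on 1 measured probe each. CXCR1 was the lowest at -4.09, but its mastitis net signal of 8 was the lowest value that passed on that array. The count of neutrophil markers lower was 5 with spike-in scaling or normexp correction, against 5.84% and 3.27% of all measured genes. It was 3 without scaling, against 2.63%. This list had summed signals of 30.2 and 9.49, and 3 further markers (CXCR2, MPO and CTSG) passed on neither array. Myoepithelial markers had 1 of 7 lower (CNN1) and fibroblast markers 1 of 8 (COL3A1), but 0 in either list under median, spike-in or quantile scaling, normexp or no scaling, and median scaling put 1 gene of each past 2-fold higher. T cell and skeletal muscle markers had 0 of 8 and 0 of 3 lower. Outside these 3 muscle genes, CKM passed the background limit on the normal array alone, a difference of at least 19.9-fold. TNNT3 passed on the mastitis array alone, with a bound of 0.95-fold that shows no higher level there after scaling.

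**Figure D5:**
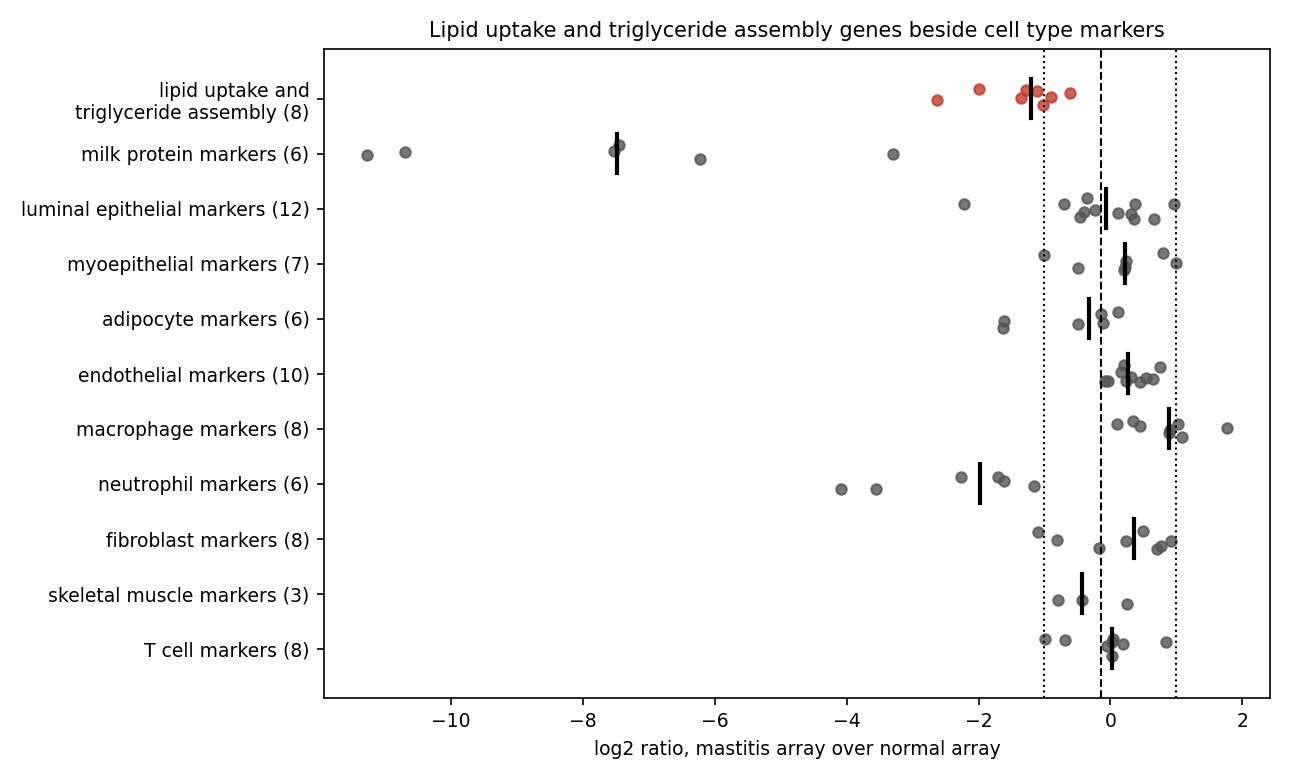
Log2 ratio of mastitis over normal for the measured members (red) and cell type markers (grey), 1 circle per gene, with black bars at the list medians, a dashed line at the all-gene median and dotted lines at 2-fold. The medians of the milk protein and neutrophil markers lie to the left of the members' median of -1.20, while the luminal, endothelial and macrophage medians lie to the right of the dashed line.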

How the data were processed

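Total RNA from mammary gland was labelled with cyanine 3 and read on 2 single-colour arrays of 45220 spots, 43653 of them probes for genes. The labels name Agilent Feature Extraction, the study's methods an Affymetrix chip, and the file headers an Agilent array scanned and read with GenePix Pro 6.1, which is the layout the files have. The authors deposited, for each spot, the median intensity and the same intensity minus the mean of the negative controls, unscaled. The deposited files give the percent of pixels that were saturated and flag spots that were not found. No member probe was saturated. For the log2 table that the authors deposited, the method is not given in the sources used here, and the column medians were 4.34 for mastitis and 4.29 for normal. Its mastitis column tracked the net signal of the neighbouring probe in sorted order (Spearman's rho across probes 1) and not that of the probe named (0.10), so it was an alternative only.

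Net signals were divided by the 75th percentile of each array over probes for genes, spots of a probe were averaged, and log2 ratios were averaged over the probes of a gene measured on both arrays. At least 2-fold was the limit, as in the study's methods. A probe measured on 1 array has a bound, its brighter signal against the higher of the dim signal and the lowest signal above background on the dim array. Probes were named by the RefSeq entry, the gene name or a synonym through a RefSeq gene table of assembly ARS-UCD2.0, used for names alone. Of the 29 member probes 28 were named by accession and 1 by synonym. No coordinates or sequences are given.

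The members, lists and comparisons were chosen with earlier results of these data known. Named were all members with every probe, their paralogs and fixed defining markers. Of each other list, genes at least 2-fold apart were eligible, at most 4 in each direction, with genes of several measured probes taken first. 1 gene of the lists is not reported here and was left out of its list. Not every eligible gene of the comparison and marker lists is described. Some other genes, among them FABP4, LIPG, TNNT3, MOGAT1, MOGAT2 and MOGAT3, were named after their values were seen. Calculations, quantile normalization among them, used Python 3.11.15, numpy 2.4.6 and pandas 2.3.3, with limma 3.58.1 in R 4.3.3 for normexp (offset 50). Simulated ratios tested the averaging over probes and the 2-fold count, but not the scaling or the background limit. Their noise was the SD between spots of the same probe (0.17), which is lower than the 0.45 between probes of a gene. No gene was simulated at the 2-fold limit itself, so calls near that limit were not tested. The alternatives changed the background correction, scaling, filters, flags, averaging of probes, naming and threshold. The number of arrays limits the precision, and 1 array per condition gives none between animals. Spots of the same probe differed with an SD of 0.17 (log2) over 41 probes. The arrays correlated with a Spearman's rho of 0.95 across probes, which are not independent replicates.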

Additional observations from a re-analysis of the deposited data

How the results depend on the processing

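The count of 6 members at least 2-fold lower became 3 after normexp correction and 3 after normexp with quantile normalization, with medians of -0.72 and -0.52. It became 2 without scaling (median -0.49) and 2 at a 3-fold limit, which 3.29% of all genes passed. The normexp offset draws ratios of dim probes toward 0, and dropping the scaling adds 0.714 to every log2 ratio, which brings the median of all genes to 0.567. The share of all genes at least 2-fold lower then was 3.27% with normexp and 2.63% without scaling. The 7 spike-in probes above background had a median unscaled log2 ratio of 0.474, and scaling by them gave 4 members lower, as did quantile normalization and scaling by the median, against 5.84%, 6.08% and 6.62% of all genes. The deposited table, read as its rows are named, gave 2 members lower and 1 higher, against 11.5% and 12.2% of all genes, and a median of -0.0033, with ACSL1 at 1.48, AGPAT1 at 0.13, DGAT1 at 0.52 and DGAT2 at 0.29. With its rows moved by 1 probe it gave 4 lower and 0 higher. Naming probes by database hits as well, an alternative chosen after seeing the data, left the count at 6. Without a filter on dim probes LPIN1 had a log2 ratio of -1.46, and with spots not found kept it had one of -0.42. Low signal limits DGAT1, DGAT2 and LPIN1, whose probes lay closest to background. No paired analysis was possible because each condition has 1 array.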
